A study of Mus musculus with 8 samples.

Results

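Collagens are the triple-helical proteins of the extracellular matrix, and mouse embryonic fibroblasts, cultured connective tissue cells grown from embryos, make many of them. The genes described here are all those whose symbol in the annotation of the Affymetrix whole-genome mouse expression array reads Col, digits, a, digits. Of 44 such symbols in the RefSeq gene table, 42 had a probe set (a group of probes for 1 transcript) that was annotated to that gene alone, and these 42 stand among 18193 genes measured in all. Col6a6 and Col28a1 had none and were not analysed here. For the 27 collagen genes with several probe sets, the set that was brightest on average stands for the gene, and the other sets are compared with it further on.

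RNA was hybridised to 8 arrays, 2 for each of 4 groups, all from fibroblasts of the C57BL/6 strain at passage 13. The groups were cells null for Stat5a and Stat5b given growth hormone (GH), null cells without GH, wild-type cells given GH and wild-type cells without GH. All cells went through 5 hours of starvation, of a kind the labels do not describe, and then had either GH at 1 ug/ml or none during 2 hours. The labels call the 2 arrays of a group biological replicates and leave unsaid whether separate embryos or separate dishes are meant, so p-values measure only the spread between these arrays. They also do not say how the Stat5a/b deletion was made or how many embryos each genotype stands for, and any difference between cells of the 2 genotypes other than the deletion cannot be told apart from the genotype.

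A collagen molecule is a trimer of chains that wind around one another, and the gene names follow the collagen type and the chain. The fibrillar types build the banded fibrils of connective tissue, with types I and III as bulk components and types V and XI at the fibril core. Type IV forms the network of basement membranes, type VI forms beaded filaments around cells, and the FACIT types sit on the surface of fibrils. Short-chain types VIII and X form lattices, type VII forms the anchoring fibrils under the epidermis, types XV and XVIII (the multiplexins) lie near basement membranes, and a further class spans the cell membrane. When GH binds its receptor, the attached kinase JAK2 phosphorylates the transcription factors encoded by Stat5a and Stat5b. Fibroblasts are the main producers of fibrillar and type VI collagen in most organs.

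Values are on the log2 scale after robust multi-array averaging (RMA), so a difference of 1 is a doubling, and levels of different probe sets are not compared. A gene was called changed where limma, fitted to all 18193 genes with 1 mean per group, gave a Benjamini-Hochberg adjusted p below 0.05, and every adjusted p below is limma's. Errors of differences are standard errors from that fit. A gene was treated as dim in a group where its mean lay under 6.1, the first quartile of the values of all genes, and no size of change is read against a dim group. Of the 42 collagen genes, 31 were above this limit in all 4 groups. Dim in all 4 groups were the 8 genes Col4a3, Col6a5, Col9a2, Col13a1, Col17a1, Col19a1, Col24a1 and Col26a1, and dim in some groups were Col4a4, Col4a5 and Col23a1.

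Both targeted genes read lower on every null array than on every wild-type array. The Stat5a probe set used was dim in null cells and read 5.57 and 5.84 in null cells with GH and 5.73 and 5.59 in null cells without GH, against 7.47 and 7.77 in wild-type cells with GH and 7.83 and 7.15 in wild-type cells without GH. Stat5b read 6.94 and 7.05 in null cells with GH and 7.31 and 7.33 in null cells without GH, against 7.96 and 7.89 in wild-type cells with GH and 7.97 and 8.06 in wild-type cells without GH. The less bright sets of both genes were dim in null cells. That of Stat5b read 4.96 to 5.42 in null arrays against 8.21 to 8.48 in wild-type arrays, and that of Stat5a 4.32 to 4.90 against 7.13 to 7.75. Which exons these probe sets cover was not analysed here. The cultures also differed in markers of other cells. Calls here are for the mean of the states with and without GH, where 54.6% of all genes were called. Called were 100% of the macrophage and leukocyte list and of the smooth muscle list, and 66.7% of the fibroblast and adipocyte lists. The shares were 50% for endothelium and for nerve and glia, 37.5% for cartilage and bone and 20% for epithelium. All 10 markers of macrophages and leukocytes measured were lower in null cells, with summed linear values of 1638 to 1784 in null arrays against 27274 to 29952 in wild-type arrays, and Ptprc, Itgam and Aif1 were dim in both null groups. Of 10 markers of smooth muscle and myofibroblasts, 9 were lower and 1 was higher in null cells, and their sums were 59559 to 61341 in null arrays against 118882 to 121065 in wild-type arrays. Of 12 fibroblast markers, 6 were higher and 2 lower, none was dim in any group, and their sums were 104920 to 111558 in null arrays against 67334 to 73564 in wild-type arrays. The sums for 10 markers of epithelium were 1360 to 1491 in null arrays and 1599 to 1719 in wild-type arrays, with 1 marker called higher and 1, Krt19, lower in null cells, and with Cdh1, Krt14, Cldn7 and Esrp1 dim in all 4 groups and Epcam not. The sums for 10 endothelial markers were 915 to 991 in null arrays and 978 to 1039 in wild-type arrays, with 2 called higher and 3, among them Emcn, lower, and with Pecam1, Tek, Tie1 and Vwf dim in all 4 groups and Kdr not. Of 8 cartilage and bone markers, which summed to 770 to 1090 in null arrays and 706 to 854 in wild-type arrays, 1 (Sox9) was called higher and 2 lower, and Matn1, Hapln1 and Ibsp were dim in all 4 groups. Of 6 nerve and glia markers, which summed to 2383 to 2532 in null arrays and 2009 to 2107 in wild-type arrays, 2 (Ngfr and S100b) were called higher and 1 (Tubb3) lower, and none was dim in all 4 groups. The 6 adipocyte markers summed to 5432 to 6048 in null arrays and 1792 to 1860 in wild-type arrays, with 3 called higher (Lpl, Fabp4 and Adipoq) and 1 lower (Pparg), and with Adipoq, Cidec and Lep dim in all 4 groups. In such bulk cultures, fewer cells of a type and less RNA per cell cannot be told apart, and the part of these differences in the collagen results was not tested.

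Null and wild-type cells differed in collagen genes in both directions. The main type VI chains (Col6a1, Col6a2 and Col6a3) and Col5a3, Col11a1, Col3a1, Col8a2, Col15a1 and Col16a1 were higher in null cells, while 4 of the 6 type IV chains and Col7a1, Col12a1, Col10a1, Col18a1, Col5a2 and Col8a1 were lower. Without GH, 13 of the 42 collagen genes were called higher and 11 lower (57.1%), against 47.5% of all genes called in that comparison (24.8% higher and 22.7% lower). With GH, 14 were called higher and 10 lower (57.1%), against 45.3% of all genes (22.2% higher and 23.1% lower). Averaged over the GH states, 16 were higher and 11 lower (64.3%), against 54.6% of all genes (27.7% higher and 26.8% lower). These shares were near those of all genes, and whether they exceed them was not tested. The average over the GH states combines the comparisons with and without GH, so it is not a separate result. The median log2 difference of the collagens was 0.05 in the mean of the GH states, beside 0.01 over all genes.

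Most called members were called in both GH states. Of the 42 collagens, 11 were called higher both times, against 18.4% of all genes, 10 were called lower both times, against 18.5%, and none was called in opposite directions, against 0.522%. Col4a3, Col9a1 (both higher) and Col5a1 (lower) were called only in the absence of GH, and Col11a2, Col23a1 and Col27a1 (all higher) only in its presence. For Col5a1 this holds for the brightest probe set, and its less bright sets had differences of -0.64 and -0.42 with GH. The call for Col23a1 was lost under the mean of all its probe sets (adjusted p = 0.112), without null array 2 with GH (adjusted p = 0.114) and without wild-type array 3 with GH (adjusted p = 0.184). On the brightest probe sets in the fit described above, none of these 6 passed the test of the difference between the GH states. That test is described further on, with a less bright Col27a1 set that passed it. The 4 null arrays lay above all 4 wild-type arrays for 14 of the 42 members, against 23.4% of all genes, and below them for 11, against 23.6% of all genes, and overlapped for 17.

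**Figure D1:**
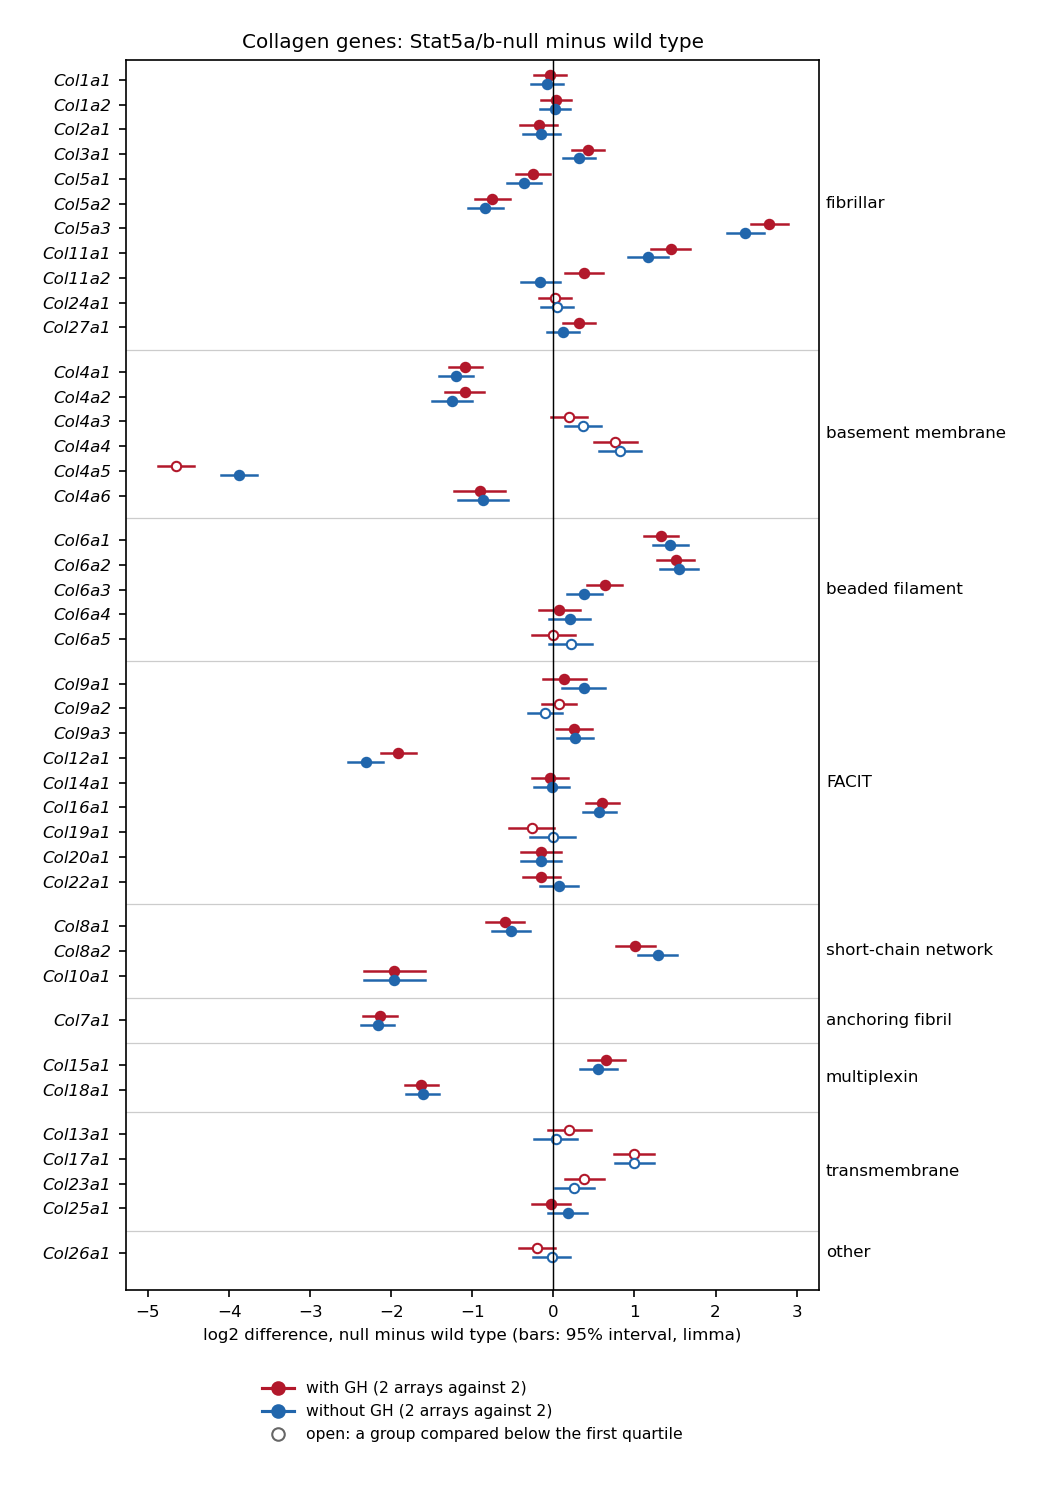
Log2 difference between Stat5a/b-null and wild-type cells for the 42 collagen genes, by class, with GH and without GH (2 arrays against 2 each, bars are 95% intervals from limma, open symbols mark members dim in a group compared). Type VI chains Col6a1, Col6a2 and Col6a3 lie right of 0 in both states, and Col4a1, Col4a2, Col4a5 and Col4a6 lie left of it.

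Among the 11 fibrillar collagens, 4 were higher and 2 lower in null cells in the mean of the GH states (54.5%, against 54.6% of all genes), with a median difference of 0.03. The main components of type I collagen, the bulk fibril protein of skin, tendon and bone, gave no call. Col1a1 read 14.46 on both arrays in null cells with GH and 14.20 and 14.35 in null cells without GH, against 14.48 and 14.51 in wild-type cells with GH and 14.41 and 14.30 in wild-type cells without GH. Col1a2 read 14.89 and 14.88 in null cells with GH and 14.84 and 14.86 in null cells without GH, against 14.83 and 14.88 in wild-type cells with GH and 14.88 and 14.79 in wild-type cells without GH. The genotypes overlapped for both genes. Their differences in the mean of the GH states were -0.06 ± 0.06 (95% interval -0.20 to 0.08, adjusted p = 0.464) for Col1a1 and 0.02 ± 0.06 (95% interval -0.11 to 0.15, adjusted p = 0.799) for Col1a2. Both sat near the top of the scale, where the highest value of any probe set on an array was between 15.03 and 15.12, and only 0.02% of all one-gene probe sets were as bright as the Col1a2 set.

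Col3a1, which encodes the chain of type III collagen and shares fibrils with type I in skin and vessels, was higher in null cells. It read 14.40 and 14.32 in null cells with GH and 14.18 and 14.34 in null cells without GH, against 13.96 and 13.90 in wild-type cells with GH and 13.94 on both arrays in wild-type cells without GH. Every null array lay above every wild-type array, by a small margin. The difference was 0.43 ± 0.09 with GH (adjusted p = 0.00177) and 0.32 ± 0.09 without GH (adjusted p = 0.0119), and the call without GH was lost when null array 3 of that group was left out (adjusted p = 0.0959).

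The chains of type V collagen, which starts fibril assembly, changed in both directions. Col5a2, the chain that type V trimers usually contain once beside 2 copies of the chain from Col5a1, read 13.68 and 13.54 in null cells with GH and 13.39 and 13.61 in null cells without GH, against 14.38 and 14.34 in wild-type cells with GH and 14.34 on both arrays in wild-type cells without GH. All null arrays lay below all wild-type arrays, and the difference was -0.80 ± 0.07 in the mean of the GH states (adjusted p = 6.87e-07). Col5a1 read 13.53 and 13.44 in null cells with GH and 13.18 and 13.38 in null cells without GH, against 13.76 and 13.71 in wild-type cells with GH and 13.68 and 13.61 in wild-type cells without GH. Its null arrays were also the lower ones without overlap, but the difference was smaller, -0.36 ± 0.10 without GH (adjusted p = 0.0072) and -0.25 ± 0.10 with GH, where it missed the threshold (adjusted p = 0.0508). Without null array 2, the call for Col5a1 in the absence of GH was lost as well (adjusted p = 0.0732). Col5a3, the remaining type V chain and the one with the most restricted expression in tissues, moved the other way. It read 11.33 and 11.30 in null cells with GH and 10.62 and 10.81 in null cells without GH, against 8.73 and 8.58 in wild-type cells with GH and 8.26 and 8.44 in wild-type cells without GH. All 4 null arrays were far above the wild-type arrays, and within null cells the arrays with GH were above those without. The genotype difference was 2.66 ± 0.10 with GH, a 6.33-fold higher signal (adjusted p = 8.91e-10), and 2.37 ± 0.10 without GH, a 5.16-fold higher signal (adjusted p = 2.41e-09), the largest increase of any collagen above the dim limit in either state. Col3a1 and Col5a2, which lie next to each other in the RefSeq gene table, thus differed in opposite directions.

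Type XI collagen, the fibril core protein of cartilage that fibroblast cultures also express, was represented by Col11a1 and Col11a2. Col11a1 read 11.89 and 11.64 in null cells with GH and 11.34 and 11.59 in null cells without GH, against 10.29 and 10.35 in wild-type cells with GH and 10.28 and 10.33 in wild-type cells without GH. All null arrays were above all wild-type arrays, and the difference was 1.31 ± 0.08 in the mean of the GH states (adjusted p = 2.17e-08). Col11a2 was near the median of all gene values and read 8.49 and 8.46 in null cells with GH and 8.03 and 7.93 in null cells without GH, against 8.08 and 8.11 in wild-type cells with GH and 8.30 and 7.97 in wild-type cells without GH. Only the null arrays with GH stood out, and the genotype difference was 0.38 ± 0.11 with GH (adjusted p = 0.0125) and -0.16 ± 0.11 without GH (adjusted p = 0.263). The call with GH was lost without null array 2, null array 3 or wild-type array 2 of the GH-treated groups (adjusted p = 0.0729, 0.0544 and 0.0593). Col27a1, a minor fibrillar collagen of cartilage, read 9.17 and 9.04 in null cells with GH and 8.81 on both arrays in null cells without GH, against 8.80 and 8.78 in wild-type cells with GH and 8.75 and 8.65 in wild-type cells without GH. Its difference was 0.31 ± 0.09 with GH (adjusted p = 0.0115), a call that was lost without null array 2, wild-type array 2 or wild-type array 3 of the groups with GH (adjusted p = 0.0951, 0.0526 and 0.0693). Col2a1, the main collagen of cartilage, read 7.18 and 7.37 in null cells with GH against 7.43 and 7.48 in wild-type cells with GH and was not called in any comparison.

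The 6 basement membrane chains were all called in the mean of the GH states, 2 higher and 4 lower, against 54.6% of all genes called, with a median difference of -1.01. The 2 that were higher, Col4a3 and Col4a4, encode chains of the kidney glomerulus and were dim in 4 and 2 groups. Col4a4 read 6.27 and 6.08 in null cells with GH and 6.43 on both arrays in null cells without GH, against 5.47 and 5.36 in wild-type cells with GH and 5.78 and 5.42 in wild-type cells without GH. Its null arrays were the higher ones without overlap, at levels around the dim limit. Col4a1 and Col4a2 together make the type IV trimer found in basement membranes throughout the body. Col4a1 read 12.76 and 12.63 in null cells with GH and 12.47 and 12.65 in null cells without GH, against 13.74 and 13.82 in wild-type cells with GH and 13.74 and 13.77 in wild-type cells without GH. Col4a2 read 12.54 and 12.52 in null cells with GH and 12.06 and 12.39 in null cells without GH, against 13.63 and 13.62 in wild-type cells with GH and 13.55 and 13.40 in wild-type cells without GH. Both were below the wild-type arrays on every null array. The differences were -1.14 ± 0.07 for Col4a1 (adjusted p = 1.83e-08) and -1.17 ± 0.08 for Col4a2 (adjusted p = 5.69e-08) in the mean of the GH states, a signal 2.21-fold and 2.26-fold lower in null cells. The gene starts of this pair lie head to head on opposite strands in RefSeq GRCm38.p6, with windows of 250 bases before to 50 after each start that overlap by 78 bases.

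Col4a5 and Col4a6, a second head-to-head pair on chromosome X, encode chains that join in the basement membranes around smooth muscle and under the epidermis. Without GH, Col4a5 had the largest genotype difference of any collagen. It read 5.86 and 5.87 in null cells with GH and 6.54 and 6.72 in null cells without GH, against 10.54 and 10.51 in wild-type cells with GH and 10.63 and 10.39 in wild-type cells without GH. The wild-type arrays formed a tight group near 10.5, and the null arrays lay just below the dim limit with GH and just above it without GH. Without GH the difference was -3.88 ± 0.10, a 14.7-fold lower signal in null cells (adjusted p = 2.95e-11), and with GH the gene was called lower but the null group was dim. A further Col4a5 probe set was dim in null cells at 4.01 and 4.09 with GH and 4.30 and 3.84 without GH, against 11.62 and 11.08 in wild-type cells with GH and 11.16 and 11.68 without GH. Col4a6 read 7.34 and 7.07 in null cells with GH and 7.36 and 7.53 in null cells without GH, against 8.34 and 7.88 in wild-type cells with GH and 8.36 and 8.27 in wild-type cells without GH. Of the 10 smooth muscle and myofibroblast markers, whose sums are given above, 9 were lower and 1 was higher in null cells. Any link between those markers and these chains was not tested. The Col4a6 readings were lower on all null arrays than on all wild-type arrays, and the difference was -0.89 ± 0.10 in the mean of the GH states (adjusted p = 7.33e-06).

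Type VI collagen was higher in null cells for its 3 main chains, which assemble into 1 trimer around fibroblasts and muscle fibres. Col6a1 read 13.92 and 13.84 in null cells with GH and 13.61 and 13.83 in null cells without GH, against 12.57 and 12.54 in wild-type cells with GH and 12.33 and 12.23 in wild-type cells without GH. Col6a2 read 14.00 and 14.08 in null cells with GH and 13.81 and 14.09 in null cells without GH, against 12.51 and 12.55 in wild-type cells with GH and 12.48 and 12.33 in wild-type cells without GH. Every null array was above every wild-type array for both. In the mean of the GH states the differences were 1.38 ± 0.07 for Col6a1, a 2.61-fold higher signal (adjusted p = 3.52e-09), and 1.53 ± 0.07 for Col6a2, a 2.88-fold higher signal (adjusted p = 3.06e-09). Col6a3, the longest chain of the trimer, read 13.19 and 13.09 in null cells with GH and 12.57 and 12.80 in null cells without GH, against 12.52 and 12.50 in wild-type cells with GH and 12.35 and 12.27 in wild-type cells without GH. The genotypes did not overlap, but the margin without GH was narrow. Its difference was 0.63 ± 0.10 with GH (adjusted p = 0.000173) and 0.38 ± 0.10 without GH (adjusted p = 0.0064), and the call without GH was lost when null array 3 was left out (adjusted p = 0.0702). Col6a4 was not called (0.14 ± 0.08, adjusted p = 0.18), and Col6a5 was dim throughout.

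The sequence before the gene start is shown for Col5a3, for the Col4a5 and Col4a6 pair and for Col6a1 and Col6a2, genes of the fibrillar, type IV and type VI results above, because a motif bound by STAT5 proteins would be looked for there. The stretches come from RefSeq GRCm38.p6, run 5′ to 3′ on the gene's strand and end at or before the start. Capitals mark a CCAAT box or a GC box, and none of them holds the STAT5 motif.
Col5a3 (chr9:20815118-20815317, minus strand): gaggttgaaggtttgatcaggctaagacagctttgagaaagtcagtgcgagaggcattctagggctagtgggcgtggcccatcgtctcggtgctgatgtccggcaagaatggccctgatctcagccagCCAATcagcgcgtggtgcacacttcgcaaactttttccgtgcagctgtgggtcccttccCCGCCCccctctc
Col4a5 (chrX:141475169-141475369, plus strand): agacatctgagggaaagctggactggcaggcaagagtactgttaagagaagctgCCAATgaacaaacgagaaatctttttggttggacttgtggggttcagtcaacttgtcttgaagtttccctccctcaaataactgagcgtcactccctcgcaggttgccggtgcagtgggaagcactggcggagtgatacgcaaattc
Col4a6 (chrX:141474096-141474326, minus strand): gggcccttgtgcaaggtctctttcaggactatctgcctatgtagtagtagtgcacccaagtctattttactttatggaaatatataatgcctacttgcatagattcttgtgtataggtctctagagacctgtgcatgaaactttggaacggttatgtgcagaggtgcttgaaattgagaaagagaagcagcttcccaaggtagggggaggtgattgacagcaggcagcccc
Col6a1 (chr10:76726045-76726294, minus strand): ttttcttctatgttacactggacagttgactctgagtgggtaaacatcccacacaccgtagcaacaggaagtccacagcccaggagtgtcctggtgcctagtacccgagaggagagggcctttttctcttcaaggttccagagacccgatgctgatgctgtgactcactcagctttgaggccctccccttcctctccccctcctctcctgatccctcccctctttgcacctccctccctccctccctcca
Col6a2 (chr10:76623631-76623880, minus strand): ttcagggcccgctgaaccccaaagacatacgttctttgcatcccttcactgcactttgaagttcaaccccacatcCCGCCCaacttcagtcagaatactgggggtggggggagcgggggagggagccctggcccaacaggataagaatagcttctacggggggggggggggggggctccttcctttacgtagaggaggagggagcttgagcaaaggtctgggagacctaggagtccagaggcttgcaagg
The windows were cut where they ran into the annotated span of the gene itself, so Col5a3, Col4a5 and Col4a6 are shown with 200, 201 and 231 bases. The uncut windows hold 1 GC box each for Col4a5 and Col4a6 and 2 for Col5a3. For these genes, GC boxes not shown in capitals lie in the part cut off, and the counts below are for uncut windows. Col6a2 has a further window, with 3 GC boxes, for another start. It is counted below but not shown, because too little of it lay outside the annotated span of the gene. The STAT5 motif TTCNNNGAA, read on both strands, was found in 1 of 36 collagen windows of 250 bases before the start (2.78%, that of Col6a5), against 7.02% of 32851 such windows of all genes. The GC box GGGCGG was found in 21 collagen windows (58.3%, against 32.7% of all), the CCAAT box in 13 (36.1%, against 33.8%) and the TATA box TATAAA in 5 (13.9%, against 12.4%). The 36 windows belong to 33 of the 42 members. The letters are a description of these windows, and sites farther from the start were not searched.

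Among the 9 FACIT collagens, 3 were higher and 1 was lower in the mean of the GH states (44.4%, against 54.6% of all genes), with a median difference of -0.03. Col12a1, a homotrimer on the surface of type I fibrils in tendon, ligament and fascia, was the one that was lower. It read 10.50 and 10.35 in null cells with GH and 9.82 and 9.96 in null cells without GH, against 12.36 and 12.31 in wild-type cells with GH and 12.12 and 12.29 in wild-type cells without GH. All null arrays were well below all wild-type arrays. The difference was -1.91 ± 0.10 with GH, a 3.76-fold lower signal (adjusted p = 1.14e-08), and -2.31 ± 0.10 without GH, a 4.98-fold lower signal (adjusted p = 2.14e-09). Col16a1, a FACIT of skin and cartilage that links to fibrillin microfibrils, read 11.39 and 11.42 in null cells with GH and 11.22 and 11.28 in null cells without GH, against 10.90 and 10.70 in wild-type cells with GH and 10.72 and 10.66 in wild-type cells without GH. Its null arrays were all the higher ones, with a difference of 0.59 ± 0.07 in the mean of the GH states (adjusted p = 6.83e-06). Col9a1 and Col9a3 encode chains of the cartilage FACIT. Col9a1 read 7.20 and 7.03 in null cells with GH and 7.19 and 7.52 in null cells without GH, against 7.06 and 6.90 in wild-type cells with GH and 7.06 and 6.90 in wild-type cells without GH. Col9a3 read 8.04 and 8.01 in null cells with GH and 7.89 and 8.06 in null cells without GH, against 7.82 and 7.72 in wild-type cells with GH and 7.82 and 7.60 in wild-type cells without GH. The genotypes overlapped for Col9a1 and did not for Col9a3. Both were called higher in null cells in that mean, by 0.26 ± 0.09 (adjusted p = 0.0234) and 0.26 ± 0.07 (adjusted p = 0.00865). The call for Col9a1 was lost without any 1 of 4 arrays (adjusted p = 0.0694 to 0.105). Col14a1, the close relative of Col12a1, was not called (-0.03 ± 0.07, adjusted p = 0.742), and neither were Col20a1 and Col22a1.

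The short-chain collagens split. Col8a1 and Col8a2 encode the chains of type VIII, a lattice collagen of vessels and of Descemet's membrane in the cornea. Col8a1 read 12.79 and 12.70 in null cells with GH and 12.72 and 12.89 in null cells without GH, against 13.34 and 13.35 in wild-type cells with GH and 13.20 and 13.45 in wild-type cells without GH. Col8a2 read 7.67 and 7.87 in null cells with GH and 8.05 and 8.21 in null cells without GH, against 6.77 and 6.75 in wild-type cells with GH and 6.97 and 6.71 in wild-type cells without GH. The first was lower and the second higher on every null array. The differences in the mean of the GH states were -0.56 ± 0.07 for Col8a1 (adjusted p = 3.01e-05) and 1.15 ± 0.08 for Col8a2 (adjusted p = 6.45e-08). Col10a1, best known from hypertrophic cartilage, read 6.35 and 6.50 in null cells with GH and 6.72 and 6.21 in null cells without GH, against 8.18 and 8.59 in wild-type cells with GH and 8.59 and 8.28 in wild-type cells without GH. The null arrays stayed just above the dim limit, and the difference was -1.96 ± 0.12 (adjusted p = 2.67e-08), a 3.9-fold lower signal.

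Of the remaining types, Col7a1 and Col18a1 were lower and Col15a1 was higher in null cells. Col7a1, the anchoring fibril collagen that ties the epidermis to the dermis, read 9.66 and 9.82 in null cells with GH and 9.51 and 9.52 in null cells without GH, against 11.93 and 11.83 in wild-type cells with GH and 11.75 and 11.61 in wild-type cells without GH. Its null arrays were all lower, and the difference was -2.15 ± 0.07, a 4.45-fold lower signal (adjusted p = 5e-11). The multiplexins Col15a1 and Col18a1, both with an end fragment that is released from the protein (endostatin in the case of Col18a1), parted. Col18a1 read 7.99 and 8.07 in null cells with GH and 7.94 and 8.06 in null cells without GH, against 9.61 and 9.70 in wild-type cells with GH and 9.69 and 9.55 in wild-type cells without GH. Col15a1 read 7.79 and 7.86 in null cells with GH and 7.65 and 7.75 in null cells without GH, against 7.14 and 7.20 in wild-type cells with GH and 7.29 and 7.01 in wild-type cells without GH. No null array overlapped a wild-type array for either gene. The differences were -1.62 ± 0.07 for Col18a1 (adjusted p = 5.8e-10) and 0.60 ± 0.07 for Col15a1 (adjusted p = 1.42e-05). Col23a1, a membrane-spanning collagen, read 6.27 and 6.12 in null cells with GH and 6.33 and 6.31 in null cells without GH, against 5.97 and 5.66 in wild-type cells with GH and 6.08 and 6.04 in wild-type cells without GH. All its null arrays were above all its wild-type arrays by small margins. Of the 4 membrane-spanning collagens, Col17a1, dim in all groups, and Col23a1, dim in both wild-type groups, were called higher in null cells, Col13a1 was dim throughout, and Col25a1 was not called (0.07 ± 0.08, adjusted p = 0.48). Col26a1 was dim.

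**Figure D2:**
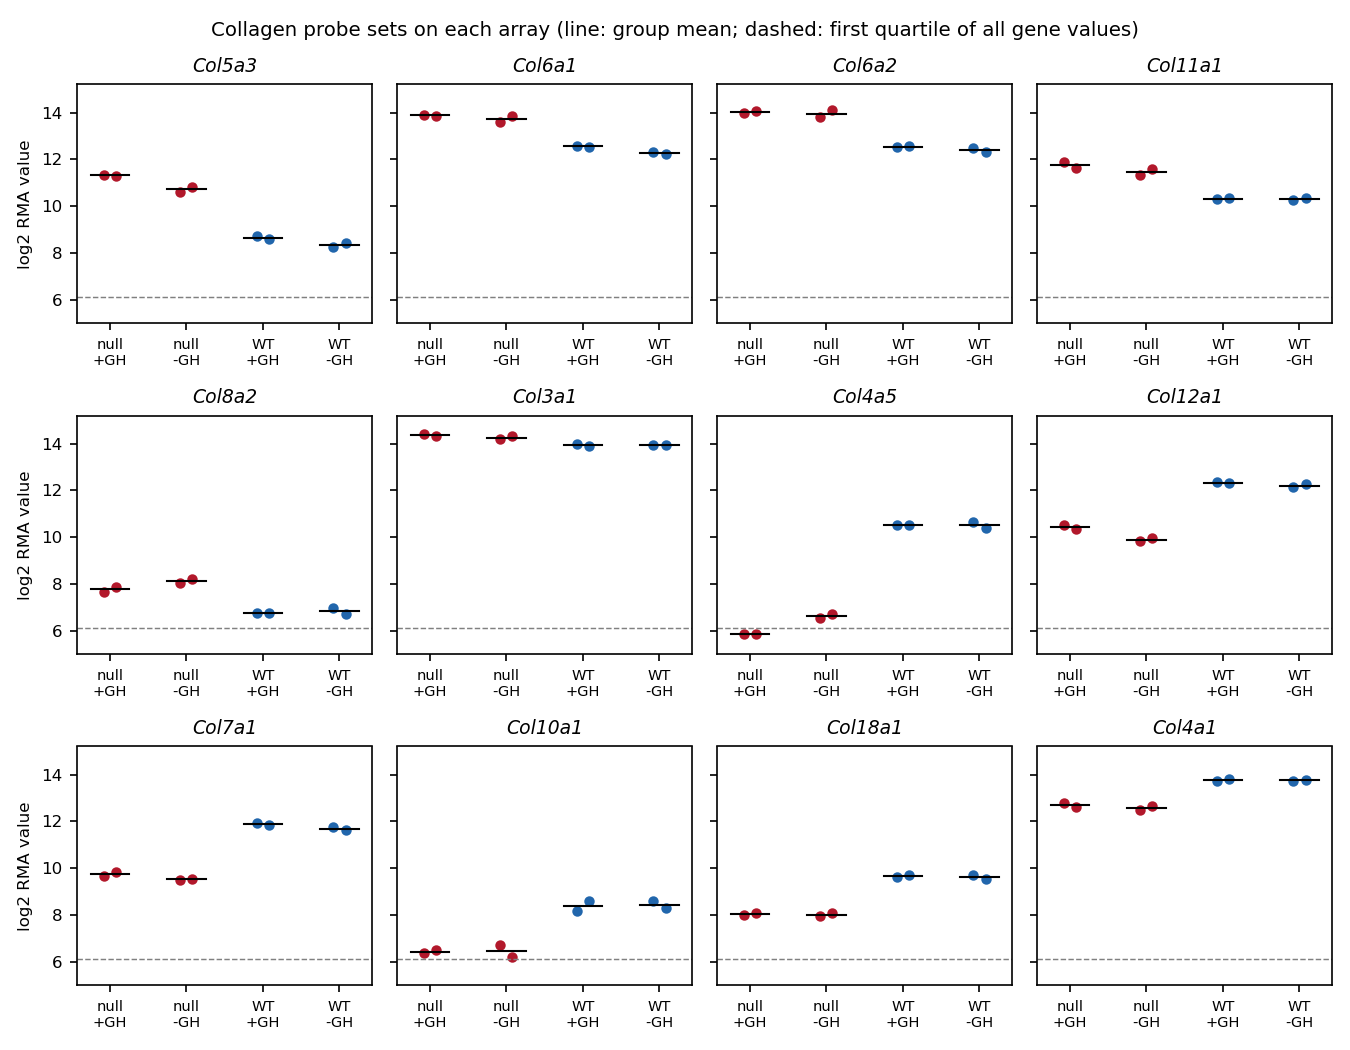
Log2 RMA value of 12 collagen genes on each of the 8 arrays, with the group mean as a line and the limit for dim genes (6.1) dashed. Null arrays stand above wild-type arrays for Col5a3, Col6a1, Col6a2, Col11a1, Col8a2 and Col3a1 and below them for Col4a5, Col12a1, Col7a1, Col10a1, Col18a1 and Col4a1.

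Chains that share a trimer did not all move together. Both chains of the ubiquitous type IV trimer were lower and all 3 of the main type VI trimer were higher in null cells. In type V, Col5a1 and Col5a2 were lower while Col5a3 was higher, and in type VIII, Col8a1 was lower while Col8a2 was higher. Whether these pairs differ from each other in response was not tested as such, since each gene's difference was tested against 0.

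For some members the choice of probe set mattered. Of the 27 collagen genes with several sets, 14 had every set called in 1 direction in the mean of the GH states, 9 had some sets called and others not, 4 had none called, and none had sets called in opposite directions. Tested set by set, a dimmer Col1a2 set read 9.69 and 9.71 in null cells with GH and 9.62 and 9.63 in null cells without GH, against 10.67 and 10.59 in wild-type cells with GH and 10.55 and 10.76 in wild-type cells without GH. All null arrays were below all wild-type arrays, and the log2 difference was -0.98 ± 0.07 (adjusted p = 2.45e-07), whereas the brighter Col1a2 sets gave 0.02 and -0.06 with no call. The second Col1a1 set, also less bright than the first, gave -0.34 ± 0.08 (adjusted p = 0.00315). The further Col5a1 sets gave -0.88 and -0.64, beside -0.30 for the brightest. For Col5a3, the second set was dim in all 4 groups and was not called (adjusted p = 0.469). For Col12a1, the brightest and another set gave differences near -2, and a pair of sets that were dim in all 4 groups was not called. For Col20a1, 2 less bright sets were called lower although the brightest was not. The less bright of these was dim in all 4 groups and the other in both null groups. Whether type I collagen was called thus depended on the probe set, and where in the transcripts the sets lie was not analysed here.

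**Figure D3:**
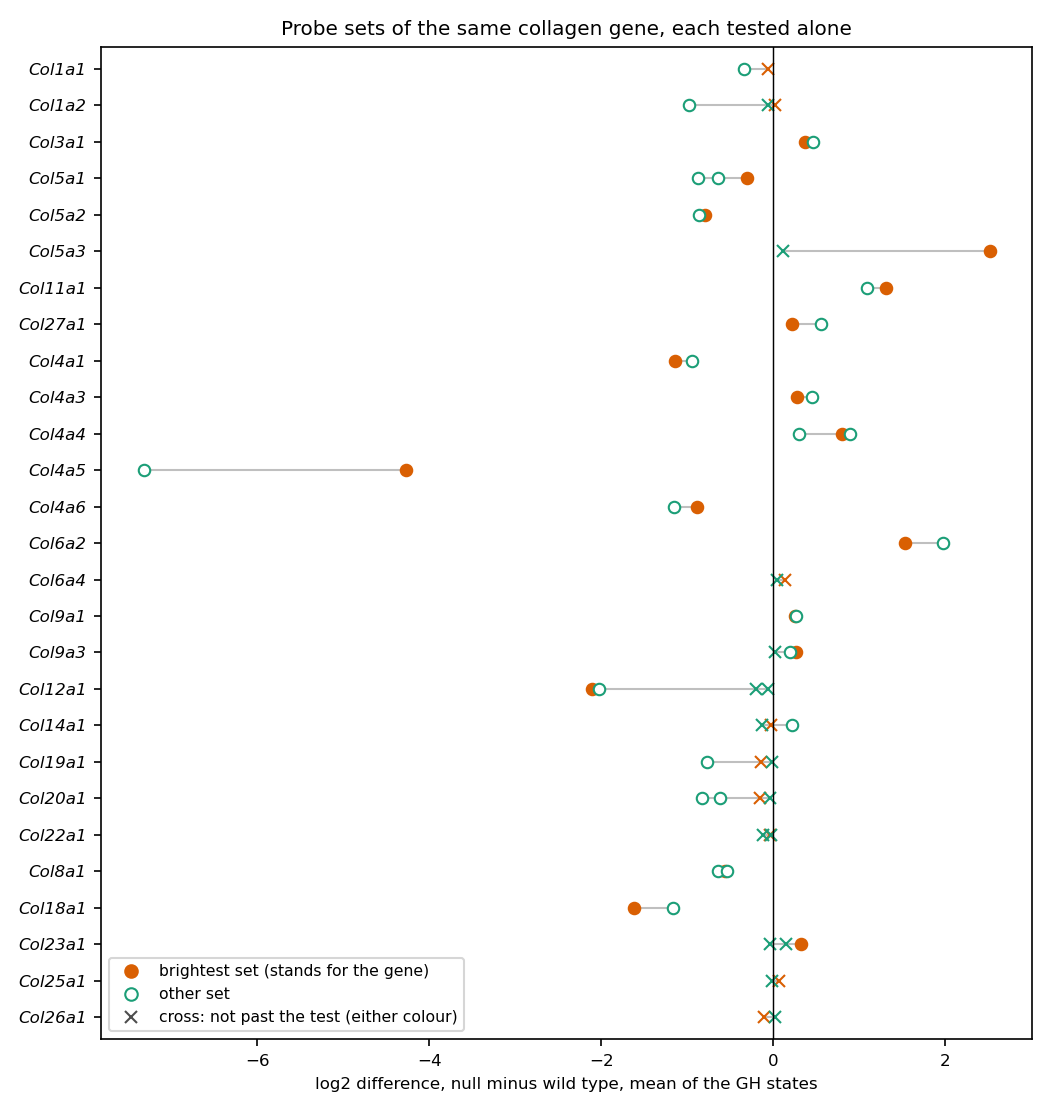
Log2 difference between Stat5a/b-null and wild-type cells, mean of the GH states, for each probe set of the 27 collagen genes with several sets (circles are sets past the test at adjusted p below 0.05, crosses are not). The 3 sets of Col1a2 spread from -0.98 to 0.02, whereas both sets of Col5a2 lie close together.

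GH for 2 hours changed few collagens. In wild-type cells, limma called none of the 42, against 2.62% of all genes (1.72% higher and 0.896% lower), and 4 had an unadjusted p below 0.05, against 10.3% of all genes. None was called under any of the alternative settings or probe sets either. The median log2 difference of the collagens was 0.04 in wild-type cells, beside -0.02 over all genes. In null cells, 4 collagens were called higher and 1 lower (11.9%), against 11.7% of all genes (5.36% higher and 6.35% lower), so the collagen share was that of the background. The median there was 0.04, beside -0.07 over all genes.

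The 4 collagens raised by GH in null cells were Col5a3, Col12a1, Col6a3 and Col11a2, whose values on each array are given above. In null cells, Col5a3 was 0.60 ± 0.10 higher with GH (adjusted p = 0.00285), Col12a1 0.53 ± 0.10 (adjusted p = 0.00487), Col6a3 0.45 ± 0.10 (adjusted p = 0.0114) and Col11a2 0.50 ± 0.11 (adjusted p = 0.0117). In each case both null arrays with GH lay above both null arrays without it, as they did for 14 of the 42 collagens. These genes were picked by the same comparison, so this separation adds no separate evidence. In wild-type cells the differences of these genes were 0.31 ± 0.10, 0.13 ± 0.10, 0.20 ± 0.10 and -0.04 ± 0.11, with adjusted p from 0.227 to 0.974. Only Col5a3 remained called in null cells when null array 2 with GH was left out, which took the count to 1, and without null array 2 lacking GH the count was 2, Col5a3 and Col11a2. The call for Col11a2 was also lost without null array 3 with GH (adjusted p = 0.0709) and without null array 3 lacking GH (adjusted p = 0.0767). Col4a5 was called lower with GH in null cells, where the GH group was dim.

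Whether the response to GH differed between the genotypes was tested as the interaction. Only Col4a5 was called, 1 of 42 (2.38%) against 5.16% of all genes (2.83% higher and 2.33% lower), and its null group with GH was dim. The call was lost without null array 2 with GH (adjusted p = 0.0536) and without null array 3 with GH (adjusted p = 0.0512). The other Col4a5 probe set was dim in both null groups, at a level where no further fall could be read. For the 4 collagens raised by GH in null cells, the interaction was 0.30 ± 0.15 for Col5a3 (adjusted p = 0.331), 0.40 ± 0.14 for Col12a1 (adjusted p = 0.144), 0.25 ± 0.14 for Col6a3 (adjusted p = 0.397) and 0.54 ± 0.15 for Col11a2 (adjusted p = 0.0723). Their response was therefore not shown to differ between null and wild-type cells. Col27a1 gave different answers by probe set. For the brightest set the difference with GH in null cells was 0.29 ± 0.09, which missed the threshold (adjusted p = 0.0549). A nearly as bright set read 9.45 and 9.40 in null cells with GH and 8.61 and 8.66 in null cells without GH, against 8.58 and 8.45 in wild-type cells with GH and 8.42 and 8.47 in wild-type cells without GH. That set was 0.79 ± 0.09 higher with GH in null cells (adjusted p = 0.000266) and had an interaction of 0.72 ± 0.13 (adjusted p = 0.00889), tested set by set over all one-gene probe sets.

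**Figure D4:**
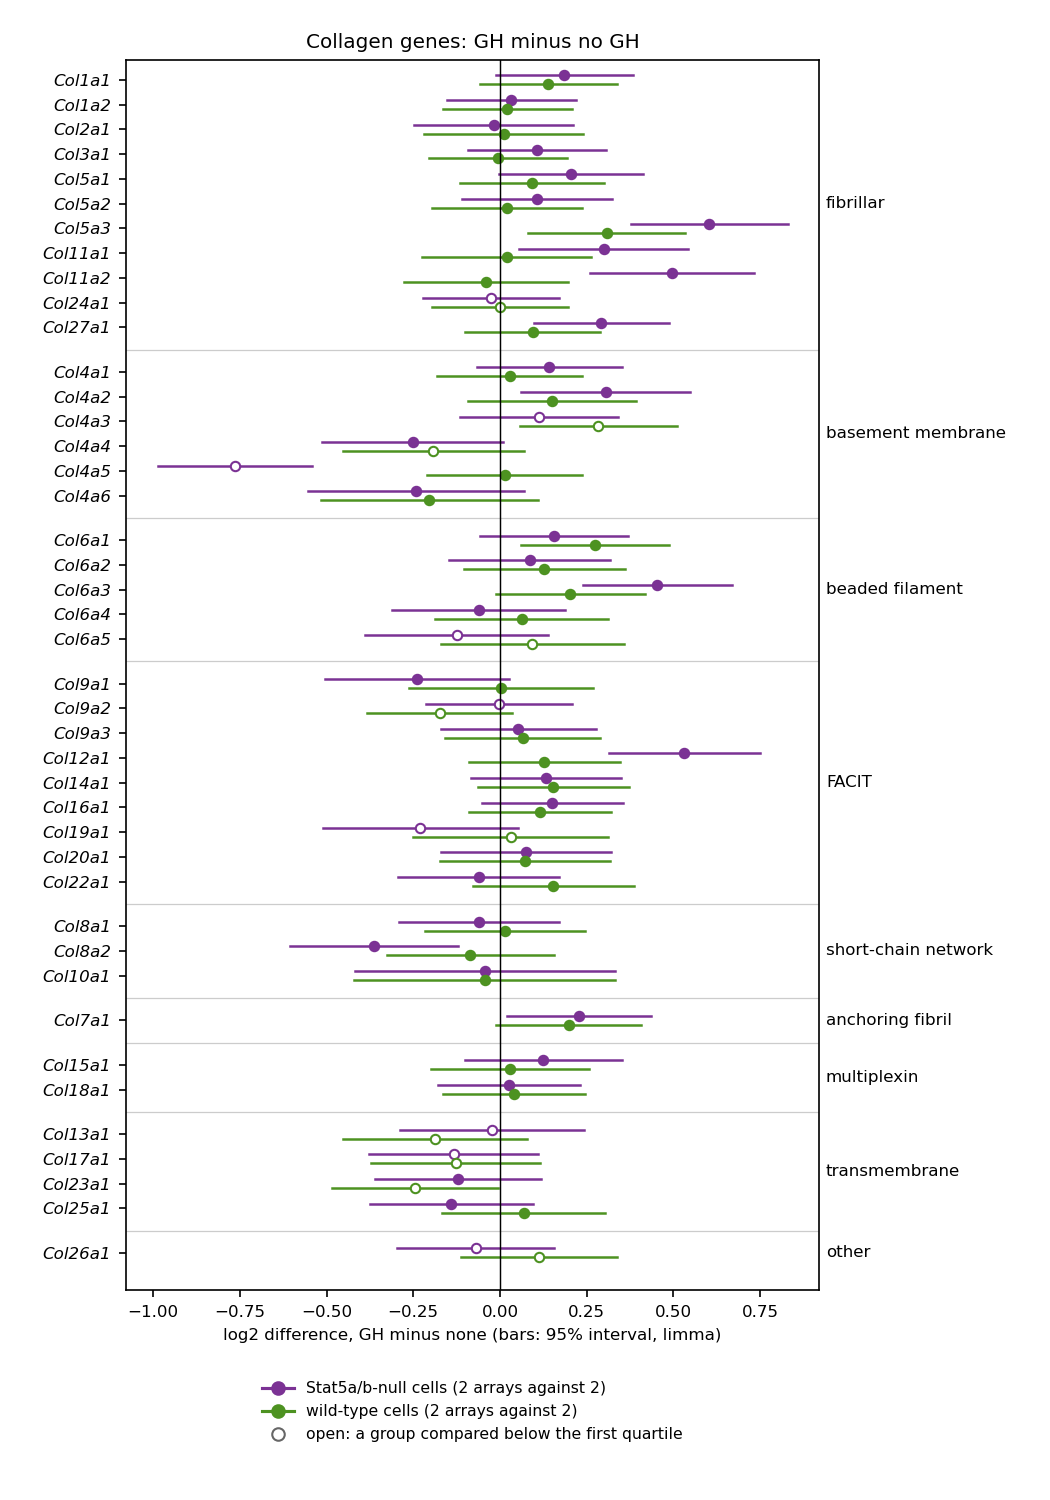
Log2 difference between cells with GH and cells without GH for the 42 collagen genes, in Stat5a/b-null and in wild-type cells (2 arrays against 2 each, bars are 95% intervals from limma, open symbols mark members dim in a group compared). Most intervals include 0, and the called Col5a3, Col12a1, Col6a3 and Col11a2 in null cells lie to the right of it. Intervals of some members not called exclude 0 as well, among them Col27a1 (right) and Col8a2 (left) in null cells and Col6a1 (right) in wild-type cells.

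The enzymes that modify, export and cross-link collagen also differed by genotype in both directions. Of 36 genes of collagen biosynthesis, secretion and cross-linking, 32 were measured, and in the mean of the GH states 10 were higher and 16 lower in null cells (81.2%, against 54.6% of all genes, of which 27.7% higher and 26.8% lower), with a median difference of -0.09. The higher ones with the lowest p were Plod2, which hydroxylates lysines for stable cross-links (1.79 ± 0.06, adjusted p = 1.55e-10), Adamts3, which trims procollagen and was dim in 2 of the 4 groups, Sec24d, a coat protein of the vesicles that carry procollagen (0.64 ± 0.06, adjusted p = 1.59e-06), and P3h2, a prolyl 3-hydroxylase (0.68 ± 0.08, adjusted p = 1.33e-05). The lower ones with the lowest p were Loxl3, a lysyl oxidase (-1.64 ± 0.06, adjusted p = 2.74e-10), Pcolce2, an enhancer of procollagen trimming (-1.34 ± 0.07, adjusted p = 7.53e-09), P4ha2, a subunit of prolyl 4-hydroxylase (-1.07 ± 0.06, adjusted p = 1.96e-08), and Tmem38b, an ion channel of the endoplasmic reticulum (-0.97 ± 0.07, adjusted p = 7.5e-08). Plod2 read 13.45 and 13.36 in null cells with GH and 13.17 and 13.25 in null cells without GH, against 11.65 and 11.60 in wild-type cells with GH and 11.47 and 11.35 in wild-type cells without GH. Loxl3 read 10.40 and 10.51 in null cells with GH and 10.67 and 10.70 in null cells without GH, against 12.25 and 12.29 in wild-type cells with GH and 12.20 and 12.11 in wild-type cells without GH. The genotypes did not overlap for either gene. None of the 32 was called by limma for GH. At an unadjusted p below 0.05 were 6 of them in null cells (18.8%, against 26.7% of all genes) and 2 in wild-type cells (6.25%, against 10.3% of all genes).

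Of 10 collagen receptor genes, 9 were measured, and 2 were higher and 5 lower in null cells in the mean of the GH states (77.8%, against 54.6% of all genes). Itga1, the alpha chain of a collagen-binding integrin that recognises type IV collagen, read 6.81 and 6.39 in null cells with GH and 6.50 and 6.80 in null cells without GH, against 9.16 and 9.05 in wild-type cells with GH and 9.27 and 9.24 in wild-type cells without GH. All null arrays were far below all wild-type arrays, and the difference was -2.55 ± 0.10, a 5.87-fold lower signal (adjusted p = 3.05e-10). Itga10, the alpha chain of a collagen-binding integrin of cartilage, was higher in null cells by 1.24 ± 0.08 (adjusted p = 3.22e-08). Ddr2, a receptor kinase for fibrillar collagen, and Itgb1, the beta chain shared by the collagen-binding integrins, were lower in null cells with differences of -0.71 ± 0.08 (adjusted p = 7.13e-06) and -0.56 ± 0.07 (adjusted p = 1.73e-05). Gp6 was called higher and Lair1 lower, both dim in all 4 groups. For GH, 2 of the 9 were called in null cells (22.2%, against 11.7% of all genes) and 1 in wild-type cells (11.1%, against 2.62%). GH raised Ddr1, the other collagen receptor kinase, by 0.51 ± 0.08 in null cells (adjusted p = 0.0024) and by 0.49 ± 0.08 in wild-type cells (adjusted p = 0.00589), and Itga10 by 0.51 ± 0.11 in null cells (adjusted p = 0.0108).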

How the data were processed

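Total RNA was labelled and hybridised to 8 Affymetrix whole-genome mouse arrays, per the labels' protocols. The log2 values deposited by the authors come from Partek 6.10.0511 and RMA, per the submitters' processing notes. RMA subtracts background, brings the arrays to a common distribution and gives 1 summary per probe set. Its settings were not given in the sources used. No detection call was used. Array medians were 6.89 to 6.96, arrays of a group correlated at 0.997 to 0.998, and 2 arrays a group limit the precision.

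Titles gave the groups. The source name of 1 null array lacking GH carries another replicate number than its title, which was used. Of 45037 probe sets without controls, 34945 had 1 annotated gene, 932 had several and 9160 had none. Symbols were updated through Entrez identifiers with the RefSeq table of GRCm38.p6 for 34741 sets. The brightest set stood for each of 18193 genes.

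All 8 arrays were fitted in limma 3.58.1 (R 4.3.3) with 4 group means, 4 residual degrees of freedom and moderated variances (prior SD 0.101, 7.82 prior degrees of freedom), and p was adjusted over all genes of a comparison. The fit was checked on generated data with known differences. Every collagen gene could be named. Full values were given for members called in the mean of the GH states unless dim in all groups, for their partner chains and for those called for GH, and 4 genes with the lowest p in each direction were named from the enzyme and receptor lists. The members and lists were chosen with earlier results of these data known. Other examples, and the probe sets compared, were chosen after their values were seen. Alternatives were another summary of probe sets, a filter on dim genes, centring or quantile normalization of the arrays, trend and robust moderation, a replicate block, a 1.5-fold minimum and leaving out each array. Testing each probe set alone was added after seeing the data.

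Arrays with the same replicate number did not deviate together from their group means (correlations of -0.194 to 0.064), so the numbers were not taken as pairs. Upstream sequences and motifs were read from the RefSeq promoter table of GRCm38.p6.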

Additional observations from a re-analysis of the deposited data

Results flagged for a closer look

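On the brightest probe sets, Col4a5 was the one collagen called by limma's interaction test. Its response in null cells minus that in wild-type cells was -0.78 on the log2 scale (adjusted p = 0.00857). The call was lost without either null array with GH and under the mean of all probe sets (-0.36, limma adjusted p = 0.196). A less bright Col27a1 set passed the interaction test when each set was tested alone. The null cells with GH read 5.86 and 5.87, under the limit for dim genes, and those without GH read 6.54 and 6.72, just above it. The value is therefore not read as a size of change. The other Col4a5 probe set was dim in both null groups and could not show a further fall.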

How the results depend on the processing

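Of 76 called values of collagen genes not dim in all groups, 64 kept the call and direction under every alternative fit. The other 12 lost the call under at least 1, and none changed direction. The 1.5-fold minimum and the test of each probe set alone were applied to counts only and are not part of these numbers. With a 1.5-fold minimum, the collagens called higher in null cells fell to 7 without GH and 9 in the mean of the GH states, and those raised by GH in null cells to 1. Under the mean of all probe sets, the collagens called lower in null cells rose to 15 without GH, 14 with GH and 15 in the mean of the GH states. Those called higher there numbered 13, 15 and 16. Leaving out each array in turn gave 11 to 14 higher and 10 to 12 lower without GH, 11 to 15 higher and 10 to 11 lower with GH, and 15 to 17 higher and 11 to 13 lower in the mean of the GH states. For GH in null cells it gave 1 to 5 higher, lowest without null array 2 with GH, and 1 to 2 lower, with 2 when either wild-type array without GH was left out. For the interaction it gave 0 to 1 higher, with 1 without wild-type array 3 lacking GH, and 0 to 1 lower, with 0 without either null array with GH. For GH in wild-type cells it gave 0. Collagens lowered by GH in null cells numbered 2, with Col8a2 added, under the mean of all probe sets, the filter on dim genes, and trend and robust moderation. The interaction then gained 1 higher call under these 3 settings, under median centring and with each probe set alone (Col11a2 or Col27a1), and lost its lower call (0) under the mean of all probe sets. The causes were not tested. The replicate block left the counts at 13 higher and 11 lower without GH, 14 and 10 with GH, and 4 and 1 for GH in null cells, and it changed no call count by over 1.5 times. Over all genes, median centring turned the split of GH calls in null cells into 1144 higher and 726 lower, beside 975 and 1155, and that of the interaction into 697 higher and 311 lower, beside 515 and 423. Without detection calls and with 2 arrays a group, small changes of dim collagens could not be resolved.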
